A study of Mus musculus with 6 samples.

Results

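The genes described here make, sense and degrade prostaglandins in the mouse kidney: the cyclooxygenases Ptgs1 and Ptgs2, the terminal synthases Ptges, Ptgds and Ptgis, the prostaglandin E2 receptors Ptger1, Ptger2, Ptger3 and Ptger4, and the degrading enzyme Hpgd. They were selected by gene symbol, as 10 of the 24422 genes in the count tables. Whole kidneys of C57BL/6 mice at postnatal day 60, all on a diet with 220 ppm iron, gave 3 libraries from wild-type controls and 3 from Tfr1f/f;KspCre mice, labelled TfR1KO;KspCre and called knockout libraries here. In the knockouts Tfrc, which encodes the transferrin receptor TfR1, carries a floxed segment that spans the transmembrane domain. The KspCre driver deletes that floxed segment in the distal nephron, so every knockout library mixes targeted and untargeted cells. The comparison asks how loss of receptor-mediated iron uptake in the distal nephron changed the transcripts of the adult kidney.

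Prostaglandins are made from arachidonic acid, which phospholipases release from membranes. Cyclooxygenases convert it to an unstable intermediate, and each terminal synthase turns that intermediate into a different prostanoid. Prostaglandin E2 is known in the kidney for effects on salt and water transport, renin release and blood flow, through receptors that raise cyclic AMP (EP2 and EP4), lower it (EP3) or raise intracellular calcium (EP1).

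Library totals ranged from 11501053 counts (knockout 3) to 21001341 counts (control 1). Values below are CPM (counts scaled to a common library total) on library sizes normalised by the trimmed mean of M-values (TMM). Knockout 1 lay between the other knockouts and the controls on the first principal component of all tested genes (9.67, against 82.1 and 88.6 for the other knockouts and -72.6 to -53.2 for the controls). Control 2 had 52 counts of Xist, against 10458 to 23845 in the other libraries, and 3980 counts of Y-linked genes, against 3 to 5. Knockout 3 had 2.59% of its counts in the ribosomal gene Rn45s, against 0.506% to 0.745% elsewhere. Tfrc was at 138.5, 167.9 and 62.0 CPM in controls 1, 2 and 3 and at 214.4, 86.0 and 40.6 CPM in knockouts 1, 2 and 3, with overlapping groups. Its counts cover the whole gene and all kidney cells, so they give no check of the labels. In these whole kidneys fewer cells of a type and less RNA per cell cannot be told apart.

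Ptger4, the cyclic AMP-raising EP4 receptor, rose 3.77-fold in the knockout kidneys and was the only member to pass the test. Its log2 fold change was 1.91 (SE 0.27, n = 3 and 3, adjusted p = 0.0271 in the edgeR quasi-likelihood fit, with Benjamini-Hochberg adjustment over the 15171 genes tested). The other 9 members did not pass. Of these, Ptgds and Ptger2 lay higher in every knockout library than in every control, while Ptgs1, Ptgs2, Ptges, Ptgis, Ptger1, Ptger3 and Hpgd had overlapping groups. All 10 members passed the filter on low counts. A share of 1 in 10 members called compares with 17.2% of all genes tested (10.6% higher and 6.64% lower). Members with all 3 knockouts above the control range numbered 3 of 10, beside 23.8% of all genes, and 0 of 10 lay below it, beside 22.2% (46% of all genes lay outside it on either side). The median log2 fold change was 0.13 over the members and 0.02 over all genes tested, with 7 members positive and 3 negative. At an unadjusted p under 0.05 edgeR gave 4 of 10 members, all higher (Ptgds, Ptgis, Ptger2 and Ptger4), beside 38.6% of all genes. Without knockout 1 the count of members called went from 1 to 3, beside 34.4% of all genes, and it went to 0 without any 1 of the other 5 libraries. The DESeq2 Wald test called 2 members, beside 32.3% of all genes.

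**Figure D1:**
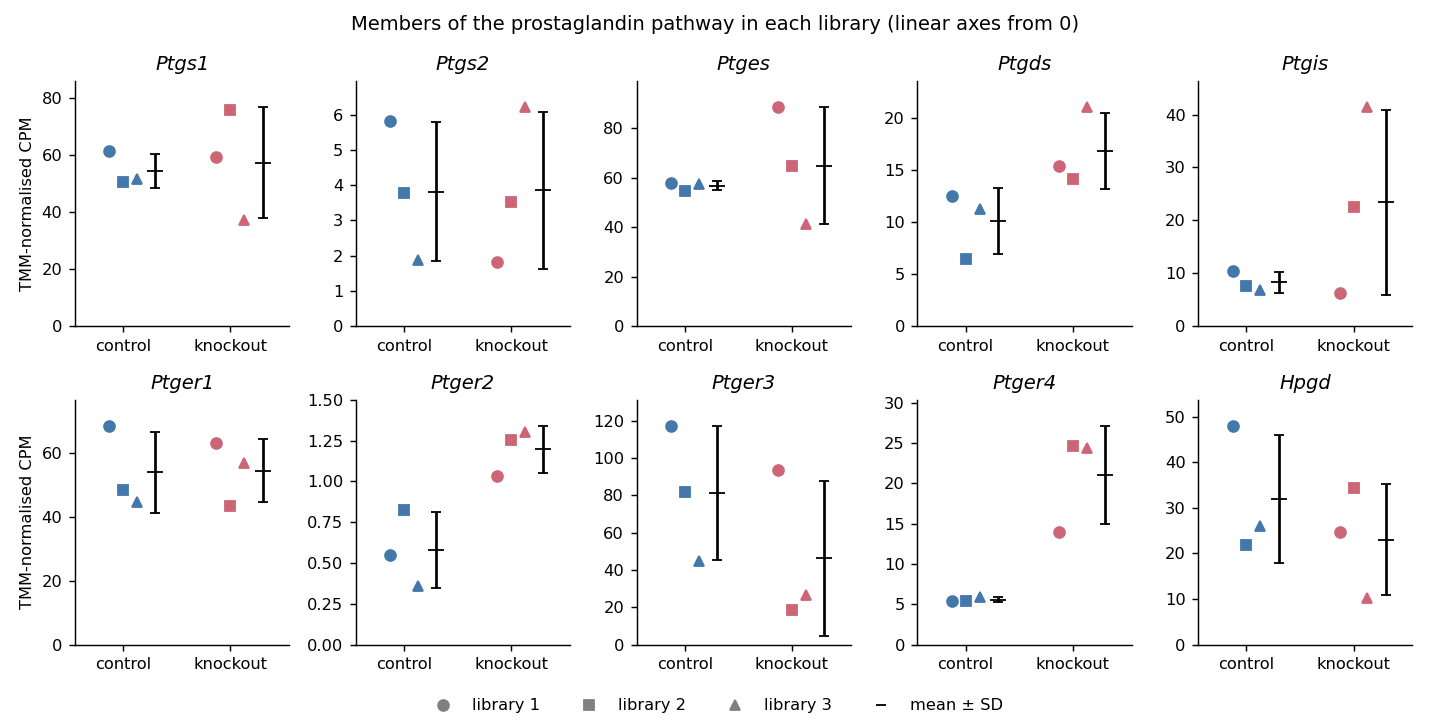
TMM-normalised CPM of the 10 members on linear axes from 0, with 1 point per library (circle, square and triangle for libraries 1, 2 and 3) and the mean ± SD of each group of 3. Ptgds, Ptger2 and Ptger4 have every knockout above every control. Knockout 1 sits nearer to the controls than to the other knockouts for Ptgis, Ptger3 and Ptger4.

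The cyclooxygenases differed from each other in level and neither passed the test. Ptgs1 (ENSMUSG00000047250, NCBIM37/mm9, chromosome 2, 36085946 to 36107792, plus strand) encodes the constitutive enzyme COX-1. It was at 61.3, 50.6 and 51.5 CPM in controls 1, 2 and 3 and at 59.1, 75.7 and 37.0 CPM in knockouts 1, 2 and 3. The knockouts thus lay above and below the controls, and the means of 54.5 ± 5.93 and 57.3 ± 19.4 (SD, n = 3 each) gave a log2 fold change of 0.07 (SE 0.26, adjusted p = 0.854 in edgeR). Ptgs2 (ENSMUSG00000032487, chromosome 1, 151947254 to 151955140, plus strand) encodes the inducible COX-2, known in the kidney from the macula densa and from interstitial cells of the medulla. It was at 5.82, 3.76 and 1.86 CPM in the controls and at 1.82, 3.51 and 6.21 CPM in the knockouts. Each group spanned a more than 3-fold range, and the means of 3.81 ± 1.98 and 3.84 ± 2.21 (SD, n = 3 each) gave a log2 fold change of -0.0027 (SE 0.56, adjusted p = 0.999 in edgeR). These values rest on 31 to 117 counts per library.

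The balance of COX-2 to COX-1 transcripts was therefore taken within each library, where it does not depend on scaling between libraries. The log2 ratio of Ptgs2 to Ptgs1 counts was -3.39, -3.74 and -4.77 in the controls and -5.01, -4.42 and -2.57 in the knockouts. Knockouts 1 and 3 held the lowest and the highest ratio of all libraries. Means were -3.97 ± 0.716 and -4.00 ± 1.27 (SD, n = 3 each), and the difference of -0.03 had p = 1 in a two-sided exact permutation test, which cannot go below 0.1 in this design. The difference ran from -0.75 to 0.47 when 1 library at a time was left out, and it was positive without control 1 (0.26), control 2 (0.08), knockout 1 (0.47) or knockout 2 (0.18).

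All 3 terminal synthases had higher means in the knockouts, and none passed the test in edgeR. Ptges (ENSMUSG00000050737, chromosome 2, 30744991 to 30785383, minus strand) encodes microsomal prostaglandin E synthase-1, the inducible enzyme that acts downstream of the cyclooxygenases. It was at 58.0, 54.5 and 57.6 CPM in the controls and at 88.4, 64.7 and 41.1 CPM in the knockouts. The controls lay close together and the knockouts spread to both sides of them (56.7 ± 1.89 against 64.7 ± 23.7, SD, n = 3 each), with a log2 fold change of 0.19 (SE 0.26, adjusted p = 0.618 in edgeR). Ptgds (ENSMUSG00000015090, chromosome 2, 25322229 to 25325566, minus strand) encodes the lipocalin-type prostaglandin D synthase. Its levels of 12.5, 6.46 and 11.2 CPM in the controls and 15.3, 14.1 and 21.0 CPM in the knockouts did not overlap. The log2 fold change of 0.74 (SE 0.30) had an unadjusted p of 0.0443 and an adjusted p of 0.120 in edgeR. Ptgis (ENSMUSG00000017969, chromosome 2, 167017305 to 167066104, minus strand) encodes prostacyclin synthase, known from vessel walls and fibroblasts. It was at 10.4, 7.52 and 6.78 CPM in the controls and at 6.33, 22.4 and 41.4 CPM in the knockouts. Knockouts 2 and 3 lay above all controls and knockout 1 lay below them (8.25 ± 1.94 against 23.4 ± 17.5, SD, n = 3 each), with a log2 fold change of 1.50 (SE 0.61, adjusted p = 0.120 in edgeR and 0.0458 in the DESeq2 Wald test). Without knockout 1 the log2 fold change of Ptgis was 1.94 (adjusted p = 0.00744), and without knockout 3 it was 0.80 (adjusted p = 0.357).

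The summed level of 6 fibroblast and pericyte markers (Pdgfra, Pdgfrb, Col1a1, Col3a1, Dcn and Acta2) moved with Ptgis in knockouts 2 and 3. The sum was 512.9, 352.5 and 281.2 CPM in the controls and 795.7, 3064 and 3075 CPM in the knockouts. Of the 6 genes, 3 rose and 0 fell, beside 10.6% of all genes tested called higher, and none was at 0. Knockout 1 was above all controls in this sum and below all of them in Ptgis. Their part in the Ptgis values was not tested.

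The receptors held the largest fold change among the members, that of Ptger4. The stretches before the starts of 3 of them are shown: that of Ptger4 because it rose, that of Ptger2 because its groups did not overlap, and that of Ptger3 because it had the highest mean of the 4 in controls. Each line gives the 250 bases before the RefSeq transcript start, read 5′ to 3′ on the strand of the gene, from RefSeq promoters of GRCm38.p6 placed by a single exact match on NCBIM37/mm9. The positions are chr15:5194188-5194437 (minus strand) for Ptger4, chr14:45607536-45607785 (plus strand) for Ptger2 and chr3:157229590-157229839 (plus strand) for Ptger3. Capitals mark matches, on either strand, to any of 6 motifs searched by their letters.
Ptger4: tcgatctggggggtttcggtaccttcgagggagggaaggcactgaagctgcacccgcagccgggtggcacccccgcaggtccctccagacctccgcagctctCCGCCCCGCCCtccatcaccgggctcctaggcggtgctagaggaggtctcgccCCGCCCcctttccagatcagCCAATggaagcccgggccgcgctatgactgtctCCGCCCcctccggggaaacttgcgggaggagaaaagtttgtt
Ptger2: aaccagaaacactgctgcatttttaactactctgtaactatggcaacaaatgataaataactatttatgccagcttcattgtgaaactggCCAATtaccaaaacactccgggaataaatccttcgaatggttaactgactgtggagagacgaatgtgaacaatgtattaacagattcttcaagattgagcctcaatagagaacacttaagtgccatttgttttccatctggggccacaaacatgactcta
Ptger3: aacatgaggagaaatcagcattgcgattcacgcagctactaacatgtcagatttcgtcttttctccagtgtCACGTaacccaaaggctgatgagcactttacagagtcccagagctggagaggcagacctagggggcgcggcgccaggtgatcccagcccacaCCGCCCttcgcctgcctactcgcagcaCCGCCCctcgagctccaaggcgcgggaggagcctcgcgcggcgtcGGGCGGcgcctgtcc

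The motifs searched were the TATA box (TATAAA), the GC box (GGGCGG), the CCAAT box (CCAAT), the core of the cyclic AMP response element (TGACG), the AP-1 site (TGANTCA) and the core of the hypoxia response element (ACGTG). No motif contains another. The Ptger4 stretch held 4 GC boxes, at 148, 143, 95 and 42 bases before the start, of which the first 2 overlap by 1 base, and 1 CCAAT box at 75 bases. In Ptger2 there was 1 CCAAT box at 160 bases and no GC box. Ptger3 held 3 GC boxes, at 87, 60 and 15 bases, and 1 hypoxia response core at 179 bases. GC content was 66.8% for Ptger4, 62% for Ptger3 and 38% for Ptger2. Over 32851 RefSeq promoter stretches of the same length, the GC box was present in 32.7%, the CCAAT box in 33.8% and the hypoxia response core in 16.6%. Stretches were given for 8 of the 10 members, and the GC box was present in 5 of these 8, the CCAAT box in 2, the hypoxia response core and the AP-1 site in 1 each (the AP-1 site is present in 6.75% of all stretches), and the TATA box and the cyclic AMP response core in 0 (present in 12.4% and 17.8%). These matches describe letters in the stretch and carry no measure of binding.

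Ptger4 (ENSMUSG00000039942, chromosome 15, 5156661 to 5194187, minus strand) was at 5.42, 5.35 and 5.94 CPM in the controls and at 14.0, 24.7 and 24.4 CPM in the knockouts. The controls lay close together and the lowest knockout was more than 2-fold above the highest control. Group means were 5.57 ± 0.324 and 21.0 ± 6.11 CPM (SD, n = 3 each), from 91 to 109 counts per control and 285 to 492 per knockout. The log2 fold change was 1.78 to 2.13 when 1 library at a time was left out. The edgeR adjusted p was 0.00228 without knockout 1 and missed 0.05 without any other library, at 0.0805 without control 1, 0.118 without control 2, 0.0927 without control 3, 0.0576 without knockout 2 and 0.0564 without knockout 3. In those 5 fits between 0 and 73 genes of all those tested were called. The exons of Ptger4 share 1015 bases (15.3%) with the pseudogene Gm15937, which is not a row of the tables, and 82 bases (1.23%) with Ttc33, at 44.2 ± 1.82 CPM in controls and 38.5 ± 2.54 in knockouts (SD, n = 3 each).

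Macrophage markers rose in the same libraries as Ptger4. Of 6 markers (Adgre1, Csf1r, Cd68, Lyz2, Itgam and C1qa), 5 rose and 0 fell, beside 10.6% of all genes tested called higher. None of these markers was at 0. Their summed level was 173.3, 156.4 and 164.7 CPM in the controls and 430.1, 1577 and 574.1 CPM in the knockouts. The sum in knockout 2 was over 2-fold that in knockout 3, while Ptger4 was at nearly the same level in both. The fibroblast and pericyte sum was also above all controls in every knockout. It was at 281.2 to 512.9 CPM in the controls and at 795.7, 3064 and 3075 CPM in knockouts 1, 2 and 3. EP4 is known from macrophages as well as from kidney epithelium and vessels. The part of any of these cell types in the Ptger4 difference was not tested.

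Ptger2 (ENSMUSG00000037759, chromosome 14, 45607870 to 45623495, plus strand), the other receptor that raises cyclic AMP, was the least abundant member. It had 11, 14 and 6 counts in the controls and 21, 25 and 17 counts in the knockouts, or 0.547, 0.823 and 0.360 against 1.03, 1.25 and 1.30 CPM. The groups did not overlap. The log2 fold change of 1.04 (SE 0.41) had an unadjusted p of 0.0396 and an adjusted p of 0.112 in edgeR. These values rest on few counts, so the counting error of each is wide.

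Ptger3 (ENSMUSG00000040016, chromosome 3, 157229856 to 157307722, plus strand) encodes EP3, known from the thick ascending limb and collecting duct, where it opposes vasopressin. It was at 116.9, 81.8 and 44.7 CPM in the controls and at 93.6, 18.3 and 26.4 CPM in the knockouts. Knockouts 2 and 3 lay below all controls and knockout 1 lay within them (81.1 ± 36.1 against 46.1 ± 41.4, SD, n = 3 each). The log2 fold change of -0.81 (SE 0.64) had an adjusted p of 0.382 in edgeR. Without knockout 1 it was -1.87 with an adjusted p of 0.0193, and over the 6 fits that left out 1 library it ran from -1.87 to -0.43.

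The summed level of markers of the thick ascending limb and macula densa, which lie in the targeted distal nephron, followed Ptger3 over the libraries in large part. The sum of Umod, Slc12a1, Kcnj1, Cldn16 and Nos1 was 9435, 8632 and 3796 CPM in the controls and 6058, 829.2 and 1141 CPM in the knockouts. In edgeR 0 of these 5 genes were called, 0 had an unadjusted p under 0.05, and DESeq2 and limma-voom also called 0, while 3 were called lower without knockout 1. None of the 5 was at 0. Umod and Slc12a1 made up most of the sum, while Cldn16 (12.9 and 20.3 CPM in controls and knockouts) and Nos1 of the macula densa (3.09 and 3.18 CPM) were each highest in knockout 3. Control 3 was the lowest control and knockout 1 the highest knockout in both Ptger3 and this sum. The part of this segment in the Ptger3 values was not tested.

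**Figure D2:**
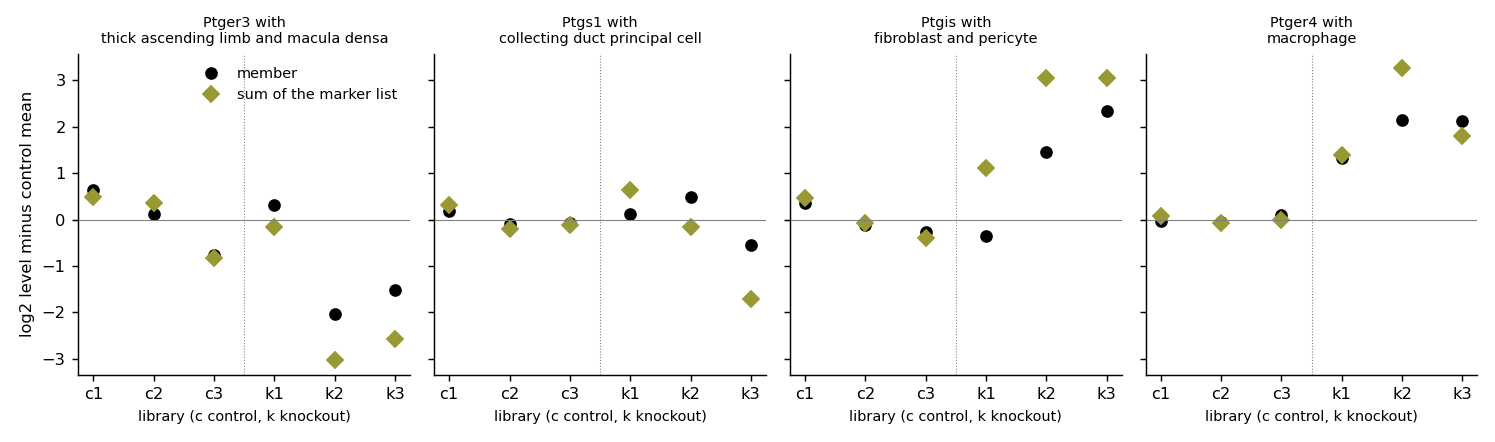
Level of 1 member (black circles) and summed CPM of a cell type marker list (diamonds) in each of the 6 libraries (c, control and k, knockout, 1 to 3), both as log2 minus the control mean. Ptger3 and the thick ascending limb sum are lowest in knockouts 2 and 3, and Ptgis and the fibroblast sum are highest there. Ptger4 and the macrophage sum are above the controls in all 3 knockouts. Ptgs1 and the principal cell sum are both lowest in knockout 3, but Ptgs1 is highest in knockout 2 and the sum in knockout 1.

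Ptger1 (ENSMUSG00000019464, chromosome 8, 86190732 to 86196652, plus strand) encodes EP1, the receptor coupled to calcium. Levels of 68.7, 48.5 and 44.8 CPM in the controls and 63.2, 43.6 and 57.0 CPM in the knockouts overlapped. The log2 fold change was 0.02 (SE 0.22, adjusted p = 0.966 in edgeR).

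Per kilobase of exon, the make-up of the 4 receptors differed between knockout 1 and the other knockouts. Ptger3 made up 63.4%, 62.4% and 49.4% of the receptor sum in the controls and 57.6%, 23.8% and 27.1% in the knockouts. For Ptger4 the shares were 2.02%, 2.80% and 4.50% in the controls and 5.90%, 22.0% and 17.3% in the knockouts, so that every knockout was above every control. Ptger1 made up 34.2%, 34.0% and 45.6% in the controls and 35.7%, 52.1% and 53.9% in the knockouts. Ptger1 was thus the largest share in knockouts 2 and 3, and Ptger3 in the other 4 libraries. Ptger2 stayed between 0.367% and 2.02%. With the longest coding transcript in place of all exon bases (3312 in place of 6648 bases for Ptger4), the mean Ptger4 share was 5.07% in controls and 23.0% in knockouts, against 3.11% and 15.1% with all exon bases.

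**Figure D3:**
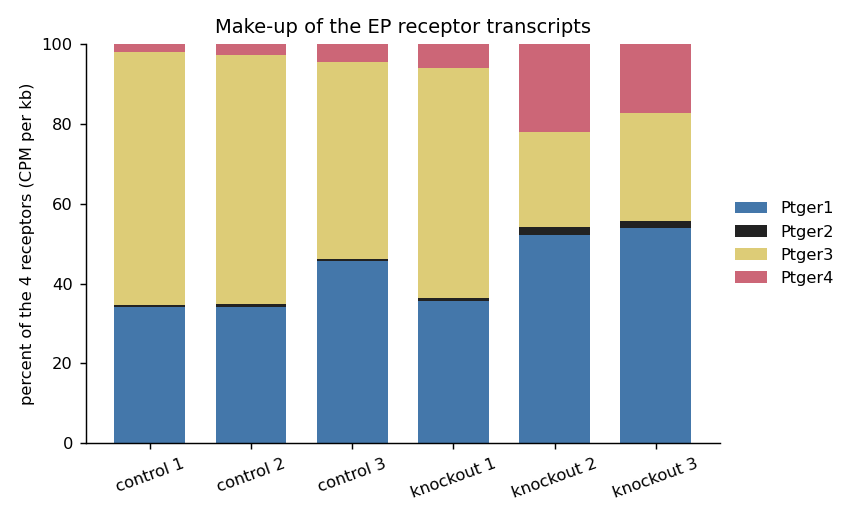
Percent of the summed EP receptor level (CPM per kilobase of exon) given by Ptger1, Ptger2, Ptger3 and Ptger4 in each of the 6 libraries. Ptger4 grows from at most 4.50% in controls to 22.0% in knockout 2, and Ptger3 falls below 30% in knockouts 2 and 3 only.

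Hpgd (ENSMUSG00000031613, chromosome 8, 58773349 to 58799843, plus strand) encodes 15-hydroxyprostaglandin dehydrogenase, which inactivates prostaglandins by oxidation. It was at 48.0, 21.8 and 26.0 CPM in the controls and at 24.6, 34.3 and 10.2 CPM in the knockouts. Knockout 3 was the lowest library and knockout 2 lay among the controls (31.9 ± 14.1 against 23.0 ± 12.1, SD, n = 3 each). The log2 fold change was -0.47 (SE 0.47, adjusted p = 0.495 in edgeR), and it ran from -0.87 without knockout 2 to -0.07 without control 1. The log2 ratio of Ptges to Hpgd counts, which sets synthesis beside inactivation within a library, was 0.27, 1.32 and 1.15 in the controls and 1.85, 0.915 and 2.01 in the knockouts. Means were 0.914 ± 0.562 and 1.59 ± 0.589 (SD, n = 3 each), and the difference of 0.68 had p = 0.3 in a two-sided exact permutation test, in which 0.1 is the smallest p possible. The difference stayed positive in all 6 analyses that left out 1 library, from 0.36 to 1.01.

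Ptgs1, Ptges and Hpgd shared their lowest knockout value in knockout 3. The summed level of 5 principal cell markers (Aqp2, Aqp3, Avpr2, Scnn1b and Scnn1g) was also lowest there, at 277.2 CPM, against 816.9 and 1428 CPM in the other knockouts and 787.9 to 1142 CPM in the controls. Aqp2 made up most of the difference, at 56.1 CPM in knockout 3, while Scnn1b, at 116.5 CPM there, was above knockout 2 and above controls 1 and 2. None of these markers was at 0, and 0 of the 5 were called in edgeR, at an unadjusted p under 0.05, in DESeq2 or in limma-voom, with 1 called lower without knockout 1. Ptgs1 and Hpgd had their highest knockout value in knockout 2, where 5 urothelium markers summed to 814.2 CPM, against 6.89 to 62.8 CPM in the other 5 libraries. The part of these cells in the 3 members was not tested.

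In the controls, the order of the members per kilobase of exon ran from Hpgd (18.6 CPM per kilobase) through Ptger3 (17.8), Ptges (14.4), Ptgs1 (14.0), Ptger1 (10.9), Ptgds (6.10), Ptgis (3.21), Ptgs2 (0.921) and Ptger4 (0.838) to Ptger2 (0.157). Neighbours in this order had overlapping ranges except at 3 steps, between Ptger1 and Ptgds, between Ptgis and Ptgs2, and between Ptger4 and Ptger2. In the knockouts Ptges (16.5) and Ptgs1 (14.7) had the highest means, and Ptger4 (3.16) stood above Ptgs2 (0.928). The order depends on the length used. With the longest coding transcript of each gene, Ptger3 (22.7) and Ptgs1 (19.0) stood above Hpgd (18.6) in the controls, and Ptger4 (1.68) stood above Ptgs2 (0.921) in the controls too. In the knockouts Ptgs1 (19.97) and Ptgds (18.6) then had the highest means.

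Beyond the members, 51 further genes of the pathway in 5 lists were examined, of which 36 had enough counts to be tested. Of these 36, 2 rose and 3 fell (13.9%, beside 17.2% of all genes tested), and the median log2 fold change was 0.06. The list counts below stand beside these shares of all genes: 10.6% called higher and 6.64% lower in edgeR, and 38.6% at an unadjusted p under 0.05. DESeq2 called 32.3% of all genes, limma-voom 13.4%, and edgeR without knockout 1 34.4%. The lists were chosen with earlier results of these data known, and they are described here by counts alone. The called genes were Hpgds and Alox5ap, which rose, and Slc22a7, Akr1c18 and Ptgr2, which fell.

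In the list for arachidonate release (phospholipases, their activator and the lipases of endocannabinoids), 0 of 10 tested genes were called in edgeR, with 2 at an unadjusted p under 0.05, 1 called in DESeq2 and 0 in limma-voom. The edgeR fit without knockout 1 called 1 gene of this list higher and 2 lower. The median log2 fold change was -0.22. Pla2g4a, the cytosolic phospholipase that releases arachidonic acid, was at 20.2 ± 6.31 CPM in controls and 34.1 ± 13.2 in knockouts (SD, n = 3 each; log2 fold change 0.76, SE 0.35, adjusted p = 0.154 in edgeR). Pla2g6, the calcium-independent phospholipase, was at 27.2 ± 3.74 and 18.5 ± 2.76 CPM without overlap (adjusted p = 0.0715). The others named by level were Pla2g5, Pla2g12a, Plaa, Mgll and Faah, with log2 fold changes from -0.73 to -0.10.

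Among the other synthases, 1 of 6 tested genes rose and 0 fell in edgeR and in DESeq2, and limma-voom called 0. In edgeR without knockout 1, 1 gene of this list was called higher and 1 lower. Hpgds, the haematopoietic prostaglandin D synthase, was at 1.69, 0.882 and 2.52 CPM in the controls and at 4.81, 25.1 and 8.81 CPM in the knockouts. The groups did not overlap, and knockout 2 was the highest (log2 fold change 2.93, SE 0.70, adjusted p = 0.0388 in edgeR). Its log2 fold change was 1.99 without knockout 2 and 2.60 to 3.31 without any other library. Its call was lost without each library other than knockout 1, with adjusted p of 0.101, 0.129 and 0.0984 without controls 1, 2 and 3 and of 0.0865 and 0.0720 without knockouts 2 and 3, and it was also lost in limma-voom (adjusted p = 0.0734). Hpgds is known from immune cells such as mast cells and macrophages. The mast cell markers Cpa3, Mcpt4, Tpsb2 and Fcer1a each had a mean under 1 CPM in both groups, Kit, the other gene on that list, was at 31.6 and 59.2 CPM, and the macrophage sum, as for Ptger4, was highest in knockout 2. The part of these cells was not tested. Ptges2, another prostaglandin E synthase, was at 50.7 ± 1.46 CPM in controls and 34.7 ± 10.2 in knockouts (SD, n = 3 each) without overlap (log2 fold change -0.55, adjusted p = 0.105 in edgeR). Ptges3, Tbxas1, Cbr1 and Fam213b had log2 fold changes from -0.95 to -0.09 and overlapping groups. Cbr1, a carbonyl reductase, was at 328.8, 48.4 and 477.5 CPM in the controls and at 172.5, 144.6 and 125.0 CPM in the knockouts, so that its overlap rested on control 2. Its log2 fold change was -1.47 without control 2 (adjusted p = 0.118 in edgeR) and -0.36 without control 3. For Fam213b, also lowest of the controls in control 2, it was -1.27 without control 2 and -0.15 without control 1. Without both control 2 and knockout 1, both genes were called lower (-1.59 and -1.69, adjusted p = 0.0144 and 0.0350 in edgeR).

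The receptors for other prostanoids gave 0 calls among 4 tested genes in edgeR, with 1 at an unadjusted p under 0.05, 1 called in DESeq2 and 0 in limma-voom. Without knockout 1, edgeR called 1 gene of this list higher and 1 lower. Ptgfr, the receptor for prostaglandin F2alpha, was at 50.0 ± 4.71 CPM in controls and 26.7 ± 14.7 in knockouts (SD, n = 3 each) without overlap (log2 fold change -0.90, SE 0.40, adjusted p = 0.149 in edgeR). Ptgir, the prostacyclin receptor, is named because it is the partner of Ptgis and was chosen after its values were seen. It was at 2.69, 1.29 and 2.58 CPM in the controls and at 3.53, 14.8 and 8.73 CPM in the knockouts. The groups did not overlap, and the log2 fold change of 2.04 (SE 0.57) had an adjusted p of 0.0511 in edgeR. Pparg, a nuclear receptor for prostanoid metabolites, had overlapping groups (log2 fold change 0.67, adjusted p = 0.390), and its log2 fold change was 0.037 without knockout 2, where it was highest (19.6 CPM).

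Transport and breakdown held the largest falls in the pathway. Of 7 tested genes, 3 were called lower in edgeR (beside 6.64% of all genes), DESeq2 and limma-voom. None was called higher in edgeR (1 at an unadjusted p under 0.05) or in limma-voom, and DESeq2 called 1 higher, Slco2a1. Slc22a7, the organic anion transporter OAT2 of the proximal tubule, was at 178.1, 320.3 and 204.6 CPM in the controls and at 14.1, 2.91 and 7.66 CPM in the knockouts (log2 fold change -4.83, SE 0.60, adjusted p = 0.0271 in edgeR). Akr1c18, an aldo-keto reductase known as a hydroxysteroid dehydrogenase that also acts on prostaglandins, was at 113.9, 80.6 and 120.9 CPM in the controls and at 8.88, 2.11 and 5.44 CPM in the knockouts (log2 fold change -4.26, SE 0.51, adjusted p = 0.0271 in edgeR). Both genes had every knockout more than 9-fold below the lowest control. Ptgr2, the prostaglandin reductase that follows Hpgd in breakdown, went from 189.4 ± 24.2 to 88.1 ± 31.0 CPM (SD, n = 3 each; log2 fold change -1.10, SE 0.26, adjusted p = 0.0380 in edgeR). Without controls 1, 2 and 3 in turn all 3 calls were lost, with adjusted p from 0.0805 to 0.124 in edgeR and log2 fold changes of -5.01 to -4.55 for Slc22a7, -4.43 to -4.15 for Akr1c18 and -1.17 to -1.005 for Ptgr2. They were also lost without knockout 3 (0.0564 for Slc22a7 and Akr1c18, 0.0888 for Ptgr2), and that of Ptgr2 was lost without knockout 2 (0.108). Markers of the proximal tubule fell in the same libraries: 5 of 6 fell and 0 rose, none was at 0, and their sum was 9270 to 12504 CPM in the controls and 4888, 1763 and 1567 CPM in the knockouts. The part of this segment in the 3 falls was not tested. Slco2a1, the prostaglandin transporter that carries prostaglandins into cells ahead of Hpgd, was at 46.9 ± 8.88 CPM in controls and 80.2 ± 21.2 in knockouts (SD, n = 3 each) without overlap (log2 fold change 0.77, adjusted p = 0.0621 in edgeR and 0.0260 in DESeq2), and it was called without knockout 1 (adjusted p = 0.0141 in edgeR). Slco2b1, Abcc4 and Ptgr1 had overlapping groups and log2 fold changes of 0.81, 0.46 and 0.07, and that of Slco2b1 was -0.069 without knockout 2, where it was highest (123.0 CPM, against 43.6 and 26.5 CPM in the other knockouts).

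In the neighbouring leukotriene and lipoxygenase branch, which draws on the same arachidonic acid, all 9 tested genes had a positive log2 fold change. Their median was 1.17 (0.02 over all genes tested), and 1 was called, beside 17.2% of all genes. Alox5ap, the protein that presents arachidonic acid to 5-lipoxygenase, was at 2.84, 2.94 and 3.84 CPM in the controls and at 9.42, 29.96 and 17.2 CPM in the knockouts (log2 fold change 2.55, SE 0.44, adjusted p = 0.0286 in edgeR). Its groups did not overlap and knockout 2 was again the highest. The Alox5ap call was lost without control 1, 2 or 3 (adjusted p of 0.0805, 0.118 and 0.0927) and without knockout 2 or 3 (0.0587 and 0.0578), with log2 fold changes of 2.05 to 2.70 in these 5 fits. Ltc4s, the leukotriene C4 synthase, was at 6.18 ± 2.28 and 13.6 ± 5.595 CPM (SD, n = 3 each) without overlap (log2 fold change 1.14, adjusted p = 0.0805 in edgeR). Alox12 and Lta4h had overlapping groups, with log2 fold changes of 1.09 and 0.06. At an unadjusted p under 0.05 edgeR gave 5 of the 9 genes, all higher, beside 38.6% of all genes tested. DESeq2 called 4 of them, beside 32.3% of all genes, and limma-voom 1, beside 13.4%. The macrophage sum was highest in knockout 2, as Alox5ap was, while Ltc4s was highest in knockout 1 (19.8 CPM), where that sum was the lowest of the knockouts, and Alox12 was highest in knockout 3 (35.2 CPM). The part of these cells in the list was not tested.

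**Figure D4:**
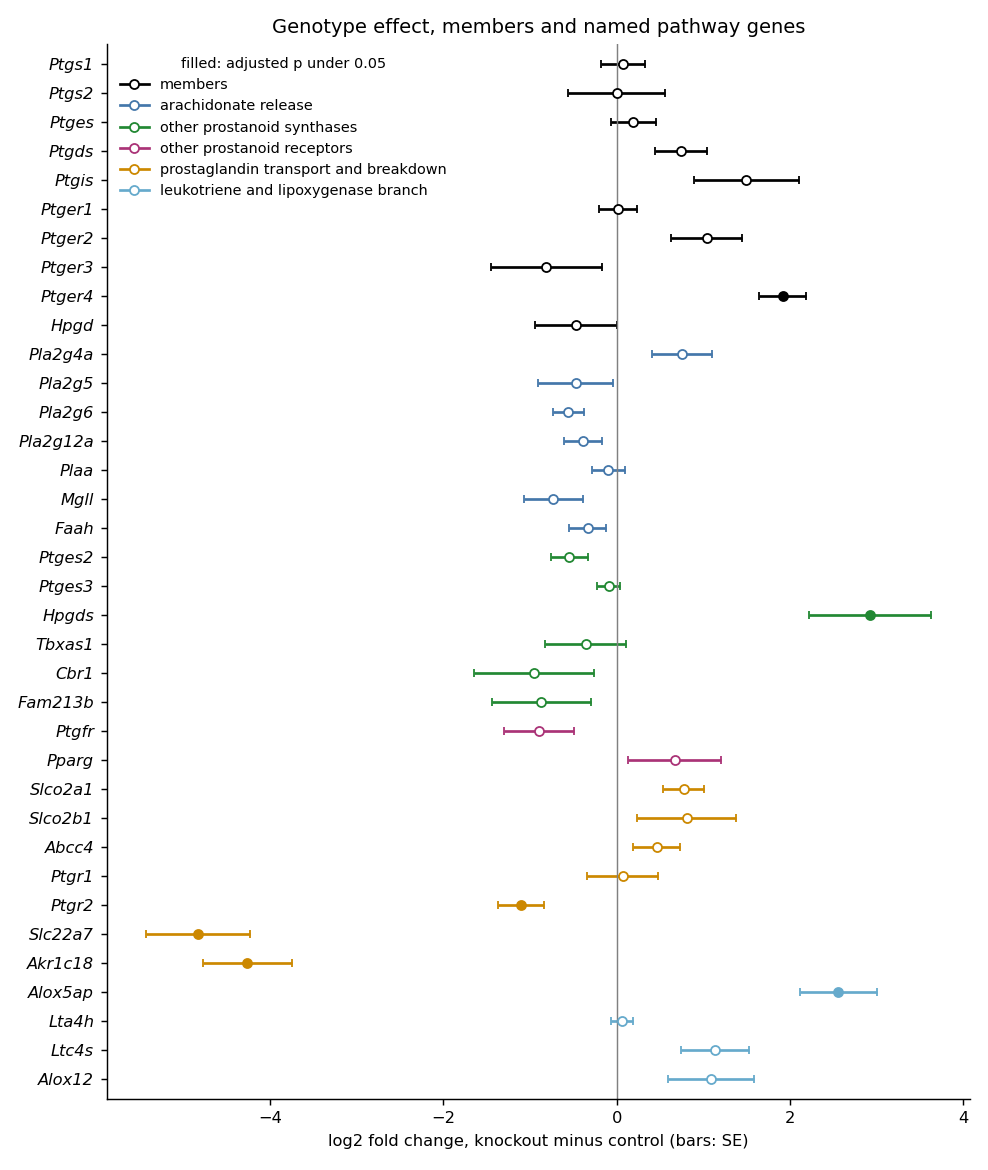
Log2 fold change (knockout minus control) with its SE from edgeR for the 10 members and the further pathway genes named by the fixed rule, coloured by list, with filled points for an adjusted p under 0.05. Among the members only Ptger4 is filled, at 1.91, and the largest differences in the plot are those of Slc22a7 (-4.83) and Akr1c18 (-4.26).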

How the data were processed

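Poly-A RNA of 6 whole kidneys was sequenced, and the authors deposited raw counts per gene, not normalised, in 1 table per group. Per the labels and the study's methods, the authors used CASAVA 1.8.2, Trimmomatic, TopHat2 2.0.11 on mm9 and HTSeq. The annotation and the strand setting are not given in the sources used here, so reads in exons that genes share cannot be told apart. The series describes the 3 samples per group as biological replicates, and no 2 libraries of a group agreed within sampling noise (chi-square per degree of freedom 52.9 to 125.5). Groups and replicate numbers came from the sample titles.

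Of 24422 genes, 4664 had 0 counts throughout and 15171 passed filterByExpr (minimum count 10, minimum total 15). Groups were compared with edgeR 4.0.16 (TMM, quasi-likelihood test, R 4.3.3), with Benjamini-Hochberg adjustment over all tested genes and a threshold of 0.05. A called gene is one below it. SE is the log2 fold change divided by the square root of F. Alternatives were other scalings and filters, DESeq2 1.42.0, limma-voom (limma 3.58.1), a replicate block and fits without single libraries. Within-library ratios (pseudocount 0.5) were tested by exact permutation (scipy 1.17.1). The fit was also run on simulated counts, and the outcome is not given here. Exon lengths, positions and overlaps came from GENCODE vM1 (NCBIM37), in which every member's 100-base words were unique.

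The members, pathway lists and marker lists were chosen with earlier results of these data known. Named genes were all 10 members, pathway genes that were called or had a mean of at least 10 CPM in either group, and Tfrc. Ptgir was added outside this rule, after its values were seen. Same-numbered libraries did not deviate together (correlations -0.13, 0.01 and 0.21), so no pairing was used. Of the 12 marker lists, the summed levels of 6 appear beside the results. Of the others, 1 of 3 distal convoluted tubule genes fell, 1 of 4 podocyte genes and 2 of 6 leukocyte genes rose, and in edgeR 0 of 4 intercalated cell, 0 of 5 endothelium and 0 of 4 tested mast cell genes were called (1, 2 and 1 at an unadjusted p under 0.05, and 1, 1 and 0 in DESeq2, none in limma-voom).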

Additional observations from a re-analysis of the deposited data

How the results depend on the processing

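The call of Ptger4 held in 10 of 16 alternatives, with log2 fold changes from 1.78 to 2.20 and adjusted p from 7.49e-08 to 0.118. It was lost in the 5 fits without 1 library named with it and with a replicate block (log2 fold change 1.87, adjusted p = 0.0713 in edgeR). The replicate numbers do not pair the libraries, and the block left 0 genes called in all (5432 at an unadjusted p under 0.05), 0 members and 0 pathway genes. The DESeq2 Wald test called 4882 genes, 2 members (Ptger4 and Ptgis) and 11 pathway genes, against 2612, 1 and 5. Leaving out 1 library gave 0 to 5332 genes, 0 to 3 members and 0 to 15 pathway genes, with 0 genes called in edgeR without any 1 control (4808, 4270 and 4823 at an unadjusted p under 0.05). Without both control 2 and knockout 1, a choice made after seeing the data, 3473 genes, 3 members (Ptger4 2.10, Ptgis 1.87 and Ptger3 -1.87) and 10 pathway genes were called. Scaling by library size alone called 10 pathway genes and moved the median of all genes by 0.27, with 81.8% of its calls higher against 61.4%.

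Some directions turned. Ptger1 was at -0.0035 with DESeq2 size factors, -0.0037 in DESeq2 and -0.19 without control 2 and knockout 1, and at -0.11 to 0.21 without 1 library. Ptgs2 was at 0.088 with upper quartile scaling, 0.28 with library size alone, 0.012 with at least 10 counts in every library and 0.32 without control 2 and knockout 1, and at -0.52 to 0.43 without 1 library. Without control 2 and knockout 1, Ptgs1 was at -0.0083, Ptges at -0.13, Plaa at 0.083 and Lta4h at -0.014. With library size alone, Plaa was at 0.18, Ptges3 at 0.18 and Tfrc at 0.14. Ptgr1 was at -0.00028 in limma-voom and -0.060 with the replicate block. Without 1 library the ranges were -0.18 to 0.31 for Ptgs1, -0.11 to 0.43 for Ptges, -0.20 to 0.080 for Plaa, -0.013 to 0.13 for Lta4h, -0.96 to 0.29 for Tfrc, -0.52 to 0.35 for Ptgr1 (0.41 without control 2 and knockout 1), -0.63 to 0.32 for Tbxas1, -0.069 to 1.18 for Slco2b1 and -0.75 to 0.47 for the Ptgs2 to Ptgs1 ratio. The cause of these turns was not tested. Ptgds, Ptgis, Ptger2, Ptger3, Ptger4 and Hpgd kept their direction in every fit that tested them. With a pseudocount of 2 the ratio differences were -0.03 and 0.67, against -0.03 and 0.68. A replicate block cannot move these differences, and the exact permutation p within it was 1 and 0.5, where 0.25 is the smallest possible.

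With 3 libraries per group, differences such as those of Ptgds, Ptgis and Ptger2 cannot be settled. The log2 fold change of Ptgis was 1.94 without knockout 1 and 0.80 without knockout 3. Control 2 stands apart in sex-linked transcripts, and an effect of sex was not tested. Ptger2 rests on 6 to 25 counts per library.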
